A study of Anser sp. with 4 samples.

Results

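In ventral skin of female geese, 55 transcript identifiers had a deep trough at 5 days after molt (day 5) and were back at a high level at day 10. They were chosen by their measured levels before molt, at day 5 and at day 10, out of 20408 identifiers detected on at least 1 array, among 31550 that the array carries. An identifier is a chicken transcript or sequence accession read by 1 or more probes, and its level is the log2 of the processed spot signal minus the 75th percentile of the same array. A level of 0 is therefore the signal that 75% of the spots do not exceed. Probes count as detected where the scanner program flagged them as well above background. Levels under -3.7 were set to -3.7, a floor close to the lowest values well above background, so that a difference ending at the floor is only roughly a lower bound. Members were identifiers whose level before molt and whose level at day 10 both lay at least 4.0 above their level at day 5, which is 16-fold.

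The birds were Wanxi-White geese, and the study is about feather regeneration. Skin was taken before molt and 1.5, 5 and 10 days after molt, named day 1.5, day 5 and day 10 from here on. Each time is represented by 1 one-colour array hybridised with Cy3-labelled material. The labels name 6 geese penned apart from the flock and sampled at every time. Pooling of their RNA and their age at sampling are not described in them. All 4 groups are female and of the same body region, and no treatment is named for any of them. Since each time has only 1 array, no test was made between times, no p-value is given, and differences between birds or RNA preparations cannot be told apart from differences between times. The probes were designed on chicken sequence, so the goose transcript that binds a probe need not be the one its identifier names. In whole skin, fewer cells of a type and less RNA per cell cannot be told apart.

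A feather grows from a follicle in the skin, where a dermal papilla signals to the epithelium of the follicle collar. Cells of the collar multiply, and cells leaving it form the barbs and fill with corneous beta-proteins and alpha-keratins before they die and harden. After molt the follicle starts this cycle again, so that young regenerating tissue comes before tissue making the hard proteins of the feather. In birds, genes of the corneous beta-proteins occur as neighbouring and very similar copies, and probes for one copy can bind transcripts of another. The files pair no identifier with a gene name, so no member is given a gene name or a role here, and neither markers of the tissue nor markers of other cell types could be read.

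The depth of the trough chose the members and is a description. Before molt the 55 levels ran from 0.52 to 11.89 with a median of 8.77. At day 1.5 they ran from -3.7 to 9.83 with a median of 5.57, and at day 5 from -3.7 to 6.95 with a median of 2.35. At day 10 they ran from 0.30 to 11.68 with a median of 8.35. Over the members the level at day 5 minus that before molt had a median of -6.06, a 66.9-fold difference, and the level at day 10 minus that at day 5 a median of 5.61, or 48.9-fold. The same medians over all detected identifiers were 0. Of the 20408 detected identifiers, 17085 were well above background at day 5, and of the 55 members 47 were. The other 8 were at the floor, and against their levels before molt they were at least 17.9-fold to at least 122-fold lower, taking the lowest value well above background on the array of day 5, -3.65, as their level. Against day 10 they were at least 15.4-fold to at least 87.5-fold lower on the same reckoning, and 3 of the 8 had a bound under the 16-fold of the rule. A day 5 level at least 16-fold below before molt, which every member has by the rule, was found for 0.676% of all detected identifiers.

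**Figure D1:**
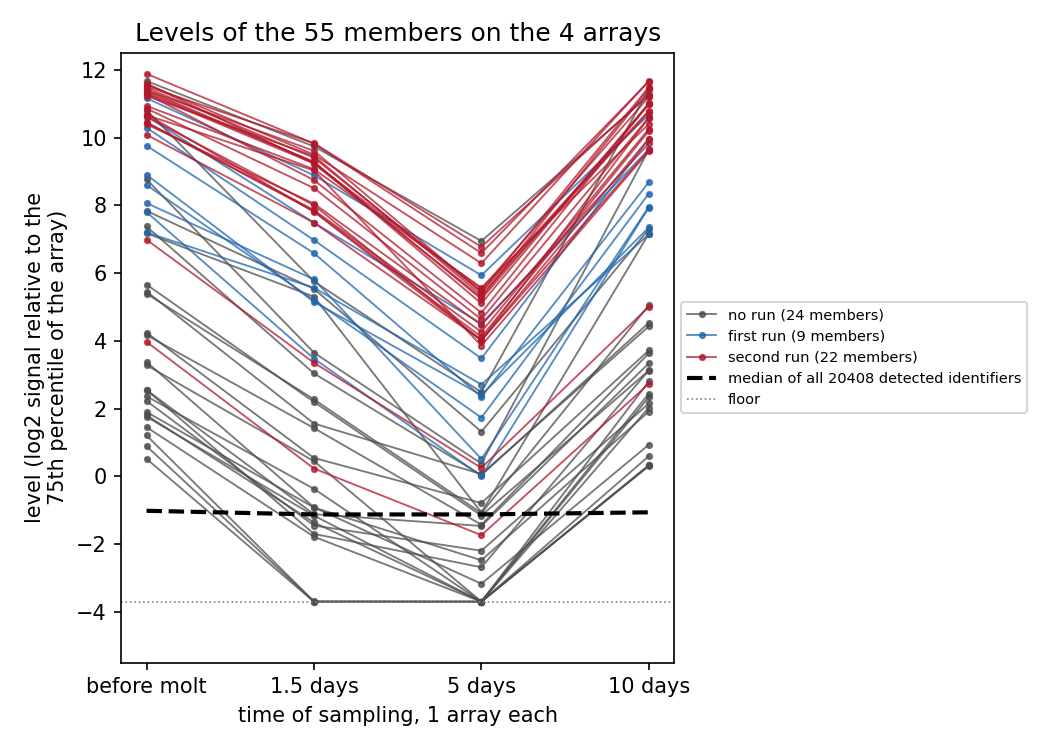
Level of each of the 55 members (vertical axis, log2 signal relative to the array's 75th percentile) on the 4 arrays, which are spaced evenly and not by time. Coloured lines are the members of the first and second run of probe numbers and of neither, the dashed line is the median of all detected identifiers and the dotted line the floor of -3.7. The members' levels are spread over more than 11 units before molt, and 53 of 55 lines are lower at day 5 than at day 1.5. The rule picked members as low at day 5, and the share of all identifiers lower by any amount was not computed.

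The threshold lay in a continuous distribution. The 3 members just inside exceeded the threshold with the smaller of their 2 differences by at most 0.02, and for the 3 identifiers just outside the smaller difference was 3.92, 3.89 and 3.86. Of these inner 3, the levels before molt were 0.89, 2.55 and 1.21, all below the members' median of 8.77. Those at 0.89 and 1.21 were at the floor at day 5, as was the outer identifier with 3.89. The floor therefore set in part on which side of the threshold they lay and how near. Bright members also lay near the threshold, such as a member at 11.67 before molt with a smaller difference of 4.29. The largest smaller difference was 8.39.

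**Figure D2:**
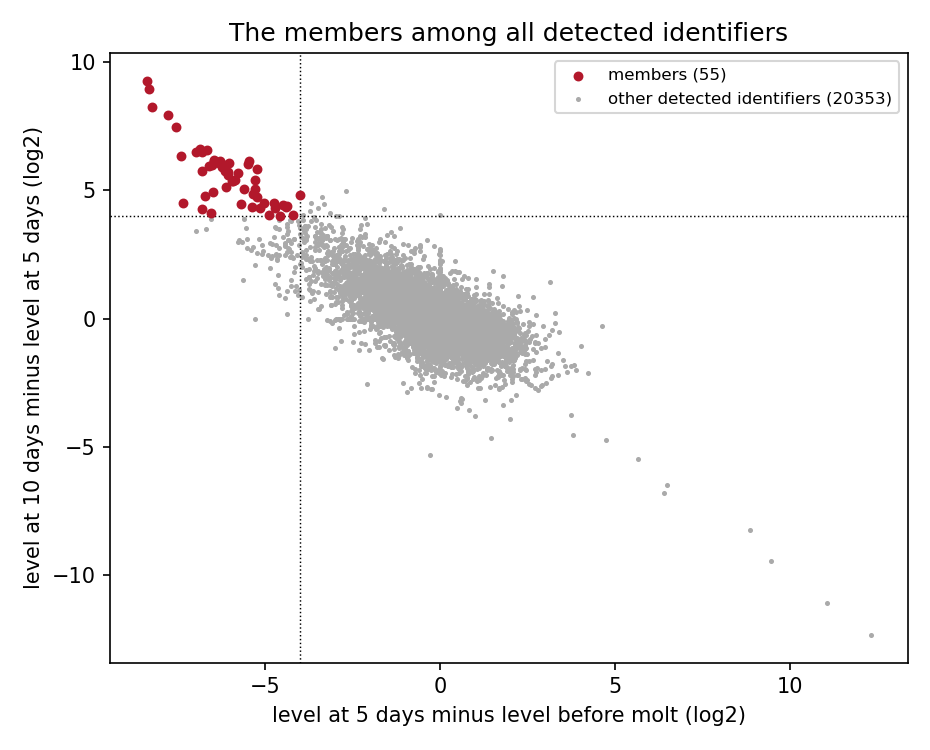
Level at day 5 minus level before molt (horizontal axis, log2) against level at day 10 minus level at day 5 (vertical axis, log2), 1 point for each detected identifier. The 55 members fill the upper left corner beyond the dotted lines at -4.0 and 4.0, and the 8 identifiers farthest to the lower right each include a spot flagged as an outlier.

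Technical error could be read from repeated spots, from different probes of 1 identifier and from the scanner program. For probes spotted several times, the SD of the log2 ratio between repeated spots was 0.15 for day 5 against before molt and 0.16 for day 10 against day 5, over 25 probes. Between different probes of 1 identifier the SD was 0.64 for day 5 against before molt over 3715 identifiers, and 0.47 where the probes lay above the 75th percentile. Of the members, 52 were read by 1 probe in use and carry this second error in full. The scanner program gave the processed signal of a member spot a median error of 10.0% on each array, and an error of up to 99.7% at day 5, where members were dim. None of the member spots in use was saturated or flagged as an outlier (0 of 59).

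Both members with the deepest trough had nearly the same course. ENSGALT00000018733 had a level of 8.77 before molt, 3.65 at day 1.5, 0.38 at day 5 and 9.64 at day 10. ENSGALT00000035537 had 10.81 before molt, 5.76 at day 1.5, 2.48 at day 5 and 11.43 at day 10. Set against before molt, the level at day 1.5 was lower by 34.8-fold for the first and by 33.3-fold for the second, and from day 1.5 to day 5 both were lower again by 9.67-fold. At day 10 both stood above before molt, the first by 1.83-fold and the second by 1.53-fold, as 10 of the 55 members did by any amount. On the log2 scale these excesses are 0.87 and 0.61; different probes of 1 identifier had an SD of 0.50 in that comparison.

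The members with the next largest differences between days 10 and 5 took other courses. TC317554 had a level of 7.18 before molt, 5.30 at day 1.5, -1.07 at day 5 and 7.16 at day 10. Its level at day 1.5 was 3.66-fold below before molt and its level at day 5 a further 82.9-fold below that at day 1.5, the largest difference of that kind among all detected identifiers. ENSGALT00000014973 had 7.80 before molt, 3.47 at day 1.5, 0.01 at day 5 and 7.94 at day 10, with a 20.1-fold difference by day 1.5 and an 11.1-fold difference after it. Each of these 4 was read by 1 probe.

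The array of day 1.5 was not used to choose the members. Each comparison with it shares its other array with the rule, which picked the members as high before molt, low at day 5 and high at day 10, so the counts that follow lean the same way by choice and are a description. Every member (55 of 55) was at least 2-fold lower at day 1.5 than before molt, against 12.2% of all detected identifiers. At 4-fold there were 47 members against 3.27% of all identifiers, at 8-fold 24 against 0.902%, and at 16-fold 9 against 0.25%. The median over the members was -2.82, a 7.08-fold difference, with a range of -5.12 to -1.64. Scaling the arrays to the spike-in control RNA in place of the 75th percentile lowered the median of all identifiers at day 1.5 against before molt to -0.78 and that of the members to -3.73, or 13.3-fold. On that scale all 55 members were at least 2-fold lower, against 38.9% of all identifiers, and all 55 at least 4-fold, against 9.66%. At 8-fold there were 42, against 2.49%, and at 16-fold 24, against 0.681%. From day 1.5 to day 5, 49 members were at least 2-fold lower at the later time, against 2.87% of all identifiers. At 4-fold there were 44, against 0.593%, and 35 were at least 8-fold lower, against 0.206%. At day 10 53 members were at least 2-fold above their level at day 1.5, against 8.6% of all identifiers. The time with the lowest level was thus day 5 for 53 members, 1 of which was already next to the floor at day 1.5, and the other 2 were at the floor at both day 1.5 and day 5. Members lower at day 5 than at day 1.5 numbered 51 under spike-in scaling and 48 under the normexp background correction. With the 75th percentile as the scale, the median of this difference over all detected identifiers was 0. The share of all identifiers lower by any amount was not computed on any of these scales.

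How the difference divided over the 2 intervals differed between bright and dim members and depended on the scaling. For 36 members the level before molt was 6.99 or more, and for 19 it was 5.66 or less, a gap that was noticed in the sorted values. Of the 36 brighter members, 29 had the larger part of their log2 difference between days 1.5 and 5. By day 1.5 they had covered a median of 39.5% of the log2 distance between before molt and day 5, with a range of 22.7% to 61.0%. Of the 19 dimmer members, 15 had the larger part by day 1.5, and their median was 65.5%. Over the 2561 detected identifiers at least 2-fold lower at day 5 than before molt, the median was 84.6%, with an SD of 37.7. Both groups of members thus had a lower median share than these identifiers. How many of all identifiers had the larger part in either interval was not counted. The floor shortens the second interval of members that were not well above background at day 5. Under spike-in scaling 20 of the 36 brighter members had the larger part by day 1.5, so that the direction flips, and all 19 dimmer ones had it by then too. The median share was then 50.6% for the brighter members and 74.3% for the dimmer ones. On the usual scale, over the 11 dimmer members that were detected at day 5 the median was also 65.5%, with a range of 48.2% to 91.3%. The dimmer members were lower by a median of 3.66 at day 1.5 and the brighter ones by a median of 2.35, each on the log2 scale.

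**Figure D3:**
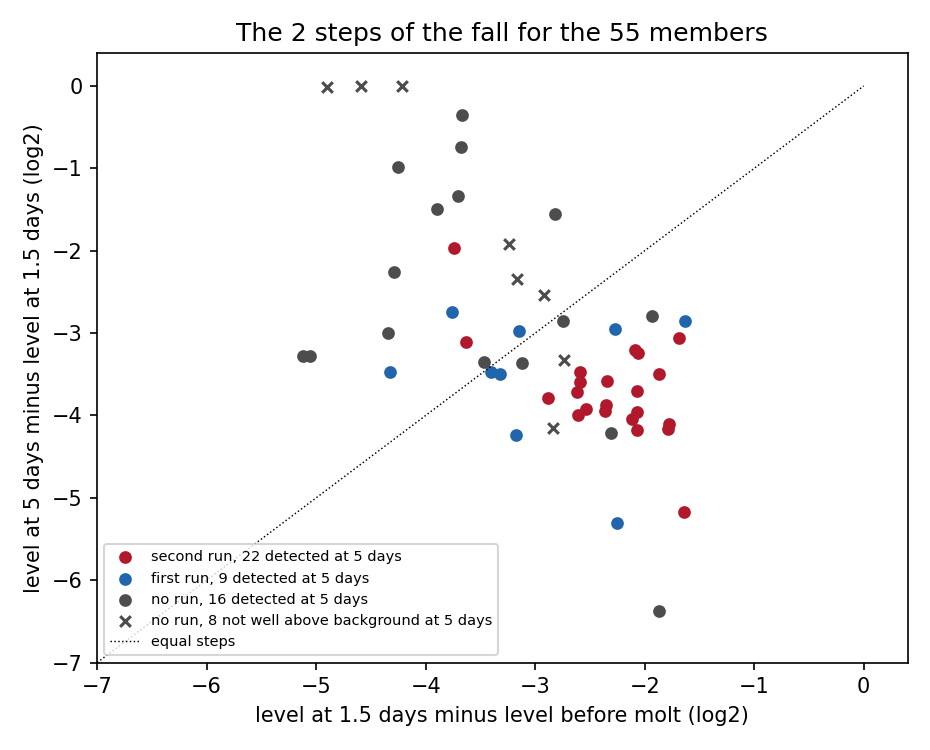
Level at day 1.5 minus level before molt (horizontal axis, log2) against level at day 5 minus level at day 1.5 (vertical axis, log2) for the 55 members, with colours for the runs of probe numbers and crosses for members not well above background at day 5. Points below the dotted line of equal steps, 33 members, had the larger step between days 1.5 and 5, and 20 of the 22 members of the second run are among them, whereas under spike-in scaling 16 members had the larger step there. Such steps were not counted over all identifiers.

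Part of the members were among the brightest identifiers before molt, while the lowest rank of a member was 6228. Members made up 28 of the 100 brightest identifiers before molt, 15 at day 1.5, 0 at day 5 and 27 at day 10. Of the 50 brightest they made up 24 before molt, 6 at day 1.5, 0 at day 5 and 21 at day 10, and the brightest identifier before molt was a member. The best rank reached by a member was 32 at day 1.5, 198 at day 5 and 4 at day 10. The median rank of the members was 96 before molt, 528 at day 1.5, 2947 at day 5 and 103 at day 10. That brightest member had a level of 11.89 before molt, 9.83 at day 1.5, 6.59 at day 5 and 11.66 at day 10. The ranks at day 5, before molt and at day 10 follow in part from the rule.

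The 59 spots of the members held 16.4% of the signal of all 43803 non-control spots before molt. They held 3.98% at day 1.5, 0.385% at day 5 and 15.4% at day 10. A share of signal does not depend on the scaling between arrays, and it weights the brightest spots most. The other 72 identifiers among the 100 brightest before molt had a median difference of -0.06 at day 5. Of these 72, 3 were at least 2-fold lower at that time, 1 of them at least 16-fold, while 0 were at least 2-fold higher. The rule took the members out of these 100, and the shares before molt, at day 5 and at day 10 come from the arrays it used. Both therefore follow in part from the choice.

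**Figure D4:**
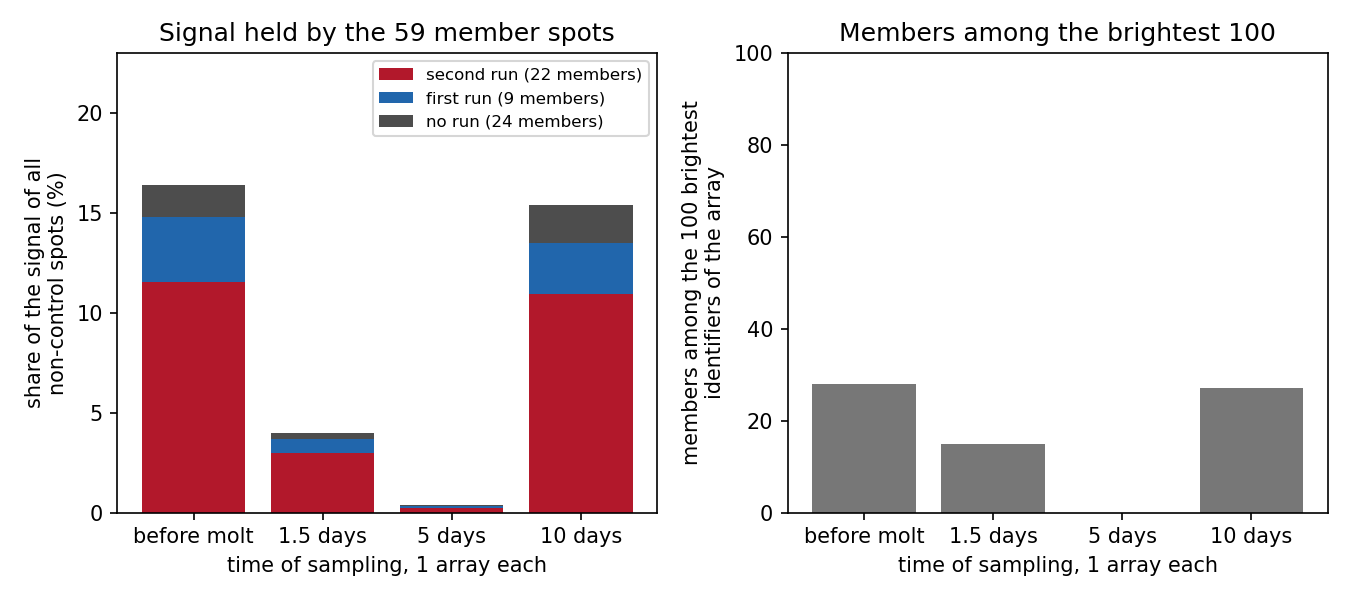
Left, share of the summed signal of all non-control spots that the 59 member spots held on each array (vertical axis, percent, stacked by run of probe numbers). Right, number of members among the 100 brightest identifiers of each array, which was 28 before molt, 15 at day 1.5, 0 at day 5 and 27 at day 10.

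Bright spots are read by this scanner at a low gain and scaled up, and this differed between the arrays. Low-gain values stood for 34 of the 59 member spots before molt, 25 at day 1.5, 0 at day 5 and 32 at day 10. The 22 members never read at low gain had a median of -3.65 for the level at day 1.5 minus before molt and of -5.48 for day 5 minus before molt, of which the second is set by the rule to lie below -4.0. Outside the members, 319 spots were read at low gain before molt and 239 of these also at day 5. Their difference between day 5 and before molt had a median of -0.09, with its 5th and 95th percentiles at -1.54 and 0.57. Most of these spots kept the low gain, whereas all 34 member spots read at low gain before molt left it by day 5. The effect of such a change of gain was therefore not tested.

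Most of the bright members had neighbouring probe numbers. Probe names end in a running number, and the files do not say what its order stands for. When members were joined wherever their probe numbers lay at most 100 apart, 31 of the 55 fell into 2 runs of at least 5 identifiers, and the remaining 24 into none. This grouping was made after the values were seen. The runs held 30 of the 36 brighter members and 1 of the 19 dimmer ones. Of the members in a run, 30 of 31 carried a chicken Ensembl transcript accession, against 7 of 24 in no run and 42.6% of all detected identifiers. Every other identifier probed within the 2 runs carried one as well, so this type of accession does not set the members apart from their neighbours. On the slide the member probes of the first run lay in rows 4 to 524 and columns 8 to 73, and those of the second in rows 6 to 529 and columns 7 to 84. Each run was thus spread over many rows and columns. The distance on the slide between neighbours by number was not computed.

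The second run was nearly made up of members. It spanned 272 probe numbers and 26 probes, of which 24 were detected and 22 belonged to members. Levels of its 22 members ran from 3.97 to 11.89 before molt, with medians of 11.09 before molt, 9.05 at day 1.5, 4.97 at day 5 and 10.68 at day 10. Leaving out the 2 members under a level of 10 before molt, the remaining 20 lay close together. Their level at day 5 minus before molt had a median of -6.11, a range of -6.81 to -4.74 and an SD of 0.52 over the 20 identifiers. The rule and the cut at 10 can narrow this spread, so the SD between probes of 1 identifier is no measure for these 20. At day 1.5 their median against before molt was -2.10 with an SD of 0.36, and at day 10 it was -0.28 with an SD of 0.27. The 2 dimmer members of the run had levels of 6.99 and 3.97 before molt, 3.35 and 0.23 at day 1.5, 0.25 and -1.74 at day 5, and 5.00 and 2.73 at day 10. Both detected probes of the run that belonged to other identifiers were dim, with levels of -1.60 and -3.7 before molt. Near-identical transcripts could bind the same probes, and how many separate genes stand behind the 22 identifiers is uncertain.

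The first run mixed members with neighbours that took several courses. It spanned 145 probe numbers and 22 probes, all detected, of which 10 belonged to 9 members and 12 to other identifiers. Its 9 members had medians of 8.91 before molt, 5.82 at day 1.5, 2.40 at day 5 and 8.35 at day 10. Of the 12 neighbours, 11 were at least 2-fold lower at day 5 than before molt and 9 were still at least 2-fold lower at day 10. Among them 4 were at least 16-fold lower at day 5, as the members were, but stood only 0.93 to 1.18 above that level at day 10. The brightest of these 4 had a level of 9.27 before molt, 5.36 at day 1.5, 4.65 at day 5 and 5.58 at day 10. The next in brightness had 7.75 before molt, 3.47 at day 1.5, 3.71 at day 5 and 4.82 at day 10. These 4 were lower by 3.81 to 4.28 at day 1.5 and lay within 2-fold of that level at day 5, whereas the 9 members were lower by a median of 3.17 at day 1.5 and by a further 3.47 after it. A 5th neighbour, with 8.55 before molt, 6.19 at day 1.5, 4.77 at day 5 and 8.39 at day 10, followed the members' course and missed the threshold with differences of 3.78 and 3.61. ENSGALT00000014973 belongs to this run and stands next by number to the brightest neighbour that did not return.

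**Figure D5:**
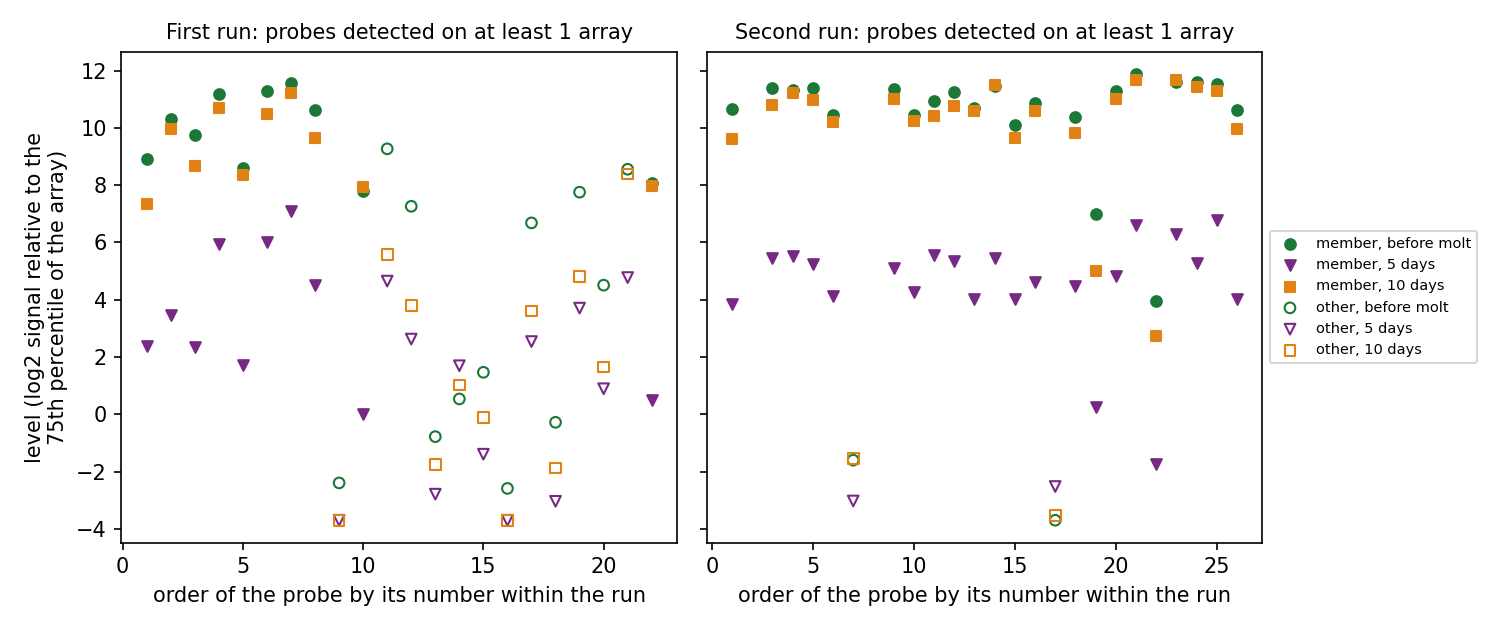
Level (vertical axis, log2 signal relative to the array's 75th percentile) before molt, at day 5 and at day 10 for every detected probe of the first and second run, ordered by probe number (horizontal axis). Filled symbols are probes of members and open symbols those of other identifiers. In the second run 22 of 24 probes are members, and for 19 of these 22 the square lies within 2-fold of the circle. In the first run the open squares of 4 bright neighbours lie 0.93 to 1.18 above their triangles.

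Members at day 10 are set here against before molt. Of the 55, 46 were within 2-fold of their level before molt at day 10, against 88.5% of all detected identifiers, and 0 were at least 2-fold above it, against 4.15%. The other 9 were at least 2-fold lower, against 7.32% of all identifiers. The median difference was -0.33, or 1.26-fold lower. It was -0.15 under quantile normalization and -0.72 under spike-in scaling, so the counts in this paragraph hold for the usual scale only. ENSGALT00000018733 lay above before molt by 1.03 on the log2 scale under quantile normalization. In the authors' log2 table it lay above by 1.02, and both values are past 2-fold. By any amount, 45 members were below before molt at day 10, against 49.8% of all identifiers. The rule requires day 10 to be high and sets no difference between it and before molt. The least complete return was that of a member in no run with a level of 7.38 before molt, 3.04 at day 1.5, 0.04 at day 5 and 4.53 at day 10, which is 7.18-fold below before molt. Of the 9, the 3 with the least complete return were 7.18-fold, 5.82-fold and 5.44-fold below before molt at day 10, and these 3 lay in no run. Of the remaining 6, 2 belonged to the first run, 3 to the second and 1 to neither.

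In the 3 members read by more than 1 probe in use, every probe was lower at day 5. The member with 3 probes had 2 bright ones, at 6.02 and 7.09 at day 5 against 11.29 and 11.57 before molt, and both were probes of the first run. Its remaining probe was dim, at -0.26 at day 10 and -1.25 before molt, and was not well above background at day 5. Averaging all 3 gave this member a level of 7.20 before molt, below either bright probe. The other 2 members had 2 probes each, all 4 of them not well above background at day 5. For 4 further members a second probe of the same identifier was not well above background on any array. In these 4 the trough therefore rests on 1 of 2 probes, and 2 of them are among the 3 members with the least complete return.

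The members were set beside milder troughs. For this, 315 identifiers were taken that lay at least 4-fold (2.0 on the log2 scale) lower at day 5 than both before molt and at day 10 and were not members. Of these 315, 66 were at least 16-fold lower at day 5 than before molt, against 0.676% of all detected identifiers. They missed the rule only by their level at day 10, so the group is not milder in every fall. The level before molt had a median of 8.77 over the members and 0.66 over the milder group, in which it reached 11.4, so that the groups overlap. By day 1.5 the members had covered a median of 43.5% of the log2 distance to day 5 and the milder group 75.2%, with an SD of 31.7 over its identifiers. For the 2561 detected identifiers at least 2-fold lower at day 5 than before molt, this median was 84.6%. The 19 dimmer members, at 65.5%, were nearer to the milder group than the 36 brighter ones, at 39.5%. Between days 1.5 and 5 49 of 55 members and 132 of 315 in the milder group were at least 2-fold lower at the later time. Over all detected identifiers this share was 2.87%. At day 10 46 of 55 members (83.6%) and 228 of 315 (72.4%) were within 2-fold of before molt. Both lay below the 88.5% of all detected identifiers. Dim identifiers have less room above the floor, the rule keeps members to higher levels before molt, and the part of level in these differences was not tested. The share is divided by the fall to day 5, which the rule makes large in members, so a lower share follows in part from the choice. Under spike-in scaling the share of the members was 55.1%, and that of the milder group was not computed. As 1 array stands for each time, none of these differences has a test.

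Differences of this size were also counted at the other times. At least 16-fold below each of the other 3 times were 10 identifiers at day 5, 1 before molt, 0 at day 1.5 and 1 at day 10. Of the 138 identifiers whose day 5 level was at least 16-fold below before molt, 55 were members and 83 did not reach the same distance at day 10. Of the 66 identifiers whose day 10 level was at least 16-fold above day 5, which is 0.323% of those detected, 11 were not members.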

How the data were processed

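Total RNA from ventral skin was hybridised to 4 one-colour Agilent arrays. Per the submitters' processing notes the arrays were extracted with Agilent Feature Extraction 10.7. The authors' deposited scanner files hold intensity values already background-subtracted by that program and not scaled between arrays, and per the file headers the probes are annotated on a chicken build. The deposited series table holds log2 values with the same median of 3.74 in every column, and the steps behind it are not given in the sources used here.

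Levels, the floor and the rule of the set are given in the report. The array's number of spots in use was 43803, of which at least 52.4% were well above background on each array. The members, lists and groupings were chosen with earlier results of these data known. By the naming rule, with no gene names, only the 2 members with the largest difference at day 5 and the other 2 with the largest return were named, and other members are given by their values. The planned gene lists and cell type markers could not be matched. The number of arrays limits the precision, and no test between times was made. The planned normexp correction used median spot signals, since mean signals are not listed in the scanner files used here. Software was R 4.3.3 with limma 3.58.1, and Python 3.11.15 with pandas 2.3.3 and numpy 2.4.6.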

Additional observations from a re-analysis of the deposited data

How the results depend on the processing

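Counts were held to be unchanged within 1.5 times, and medians and single differences where they moved by less than the SD between probes of 1 identifier. Of 74 values recomputed for the set under other settings, 70 were unchanged by this measure and 0 changed sign. Medians were recomputed over the same members, so the signs of the differences that the rule uses were set in advance. For day 10 against before molt the SD of 0.50 is larger than the median of -0.33, so the measure says little there. The count of 38 members under normexp correction passes as unchanged too, although 20 of the 55 were lost. The number of members was 54 under quantile normalization, 53 under median centring, 61 under spike-in scaling, 54 in the authors' log2 table, 66 with the brightest probe and 38 under normexp, of which 35 were among the 55. It was 89 with no floor, which admits dim levels without a bound, 135 at a threshold of 3.0 and 35 at 5.0. Spike-in scaling moved the median difference between day 1.5 and before molt to -3.73, by construction through a shift common to all identifiers. Of 192 values for the 4 named members, 7 moved. Signal over background limits the 8 members at the floor at day 5. Leaving out a replicate and a slide block were not possible. No paired analysis was possible because each time has 1 array.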

Other observations

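The reverse pattern came with outlier flags. At day 5, 8 identifiers were at least 16-fold above both before molt and day 10, with levels of 1.03 to 8.61 at day 5, and all 8 included a spot that the scanner program flagged as an outlier. None of the 55 members did (0 members). With flagged spots left out, 20387 of the 20408 detected identifiers remained, so a count of 0 does not by itself set the members apart. How many of all detected identifiers include a flagged spot was not counted. Of the 8 identifiers with the reverse pattern, 5 were at the floor at another time. Spike-in control RNA stood higher relative to the 75th percentile on the 3 later arrays. With 4 spike-in probes of middle signal, the mean shift against before molt was 0.91 ± 0.11 (SD over the probes) at day 1.5, 0.55 ± 0.07 at day 5 and 0.38 ± 0.07 at day 10, on the log2 scale. The level of the members at day 5 lies further below before molt by this amount if the spike-ins are taken as the scale.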
